A study of Mus musculus with 63 samples.

Results

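The 4 Camk2 genes and 5 genes that mark excitatory neurons were followed through 4 sorted cell populations of the mouse cortex after burn or sham injury. They were found by symbol among the Ensembl identifiers of the count tables, and all 9 of 9 were present among 56980 gene rows: Camk2a, Camk2b, Camk2d, Camk2g, Slc17a7, Tbr1, Neurod2, Nrn1 and Rorb. Adeno-associated viruses were injected into the primary motor cortex of female C57BL/6J mice aged 12 weeks, 1 carrying eGFP behind the CaMKII promoter and 1 carrying mRuby2 behind the mDlx enhancer, so every burn and every sham mouse carried both viruses. The burn covered 7 to 8% of the body surface on the right flank, sham mice were shaved but not burned, and cells were sorted 5 weeks later.

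Cells with eGFP alone (labelled excitatory neurons) are called CaMKII positive here, cells with eGFP and mRuby2 (labelled inhibitory neurons) are called double-positive, and both came from the motor cortex. ACSA2-positive astrocytes and CD11b-positive microglia came from cortex caudal to it. Cell population and region therefore cannot be told apart where CaMKII positive or double-positive libraries are compared with astrocytes or microglia. Libraries numbered 4 burn and 6 sham for CaMKII positive cells, 9 and 7 for double-positive cells, 9 and 8 for astrocytes and 8 and 7 for microglia. Each library is 1 mouse, and mouse 3 and the double-positive library of mouse 8 were left out, as the study did. The total count ran from 13346143 to 134703744 per library, which puts the limit that a count of 0 allows between 0.0223 and 0.225 CPM (counts scaled to the same total in each library).

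Calcium/calmodulin-dependent protein kinase II is a large ring of kinase subunits that is switched on when calcium-loaded calmodulin binds it, and that can stay active after calcium has fallen. In forebrain excitatory neurons the alpha and beta subunits, encoded by Camk2a and Camk2b, are among the most abundant proteins of the postsynaptic density and act in long-term potentiation. The delta and gamma subunits, encoded by Camk2d and Camk2g, are made in many tissues. Slc17a7 encodes the vesicular glutamate transporter VGLUT1, Tbr1 and Neurod2 encode transcription factors of cortical glutamatergic neurons, Nrn1 encodes neuritin, a membrane-anchored protein of growing neurites, and Rorb encodes a nuclear receptor known as a marker of the granular layer of sensory cortex.

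The sequence just before the transcription start is shown for 3 genes, Slc17a7 and Neurod2 as excitatory identity genes and Rorb as the gene whose level differed most between populations. The stretches are from RefSeq promoter windows of the build GRCm38.p6, which holds entries for 6 of the 9 genes, and each ends at or a few bases before the start site of its gene. Slc17a7 lies at chr7:45163671-45163920 on the plus strand, Neurod2 at chr11:98329649-98329895 on the minus strand and Rorb at chr19:19111197-19111446 on the minus strand. Capitals mark a match to a searched motif.
Slc17a7: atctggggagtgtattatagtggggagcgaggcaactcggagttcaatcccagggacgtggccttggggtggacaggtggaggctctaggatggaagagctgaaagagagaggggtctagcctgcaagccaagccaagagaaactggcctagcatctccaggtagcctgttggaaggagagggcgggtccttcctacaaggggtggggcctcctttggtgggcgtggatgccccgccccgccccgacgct
Neurod2: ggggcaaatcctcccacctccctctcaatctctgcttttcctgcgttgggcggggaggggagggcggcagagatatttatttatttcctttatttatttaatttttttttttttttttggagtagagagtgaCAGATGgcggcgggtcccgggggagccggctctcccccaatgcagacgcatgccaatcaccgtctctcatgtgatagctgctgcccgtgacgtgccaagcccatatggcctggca
Rorb: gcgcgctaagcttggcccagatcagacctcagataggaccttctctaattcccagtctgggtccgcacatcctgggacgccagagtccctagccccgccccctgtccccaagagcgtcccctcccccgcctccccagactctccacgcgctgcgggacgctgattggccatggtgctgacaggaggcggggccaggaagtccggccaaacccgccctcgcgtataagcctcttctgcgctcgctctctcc
Searched on both strands were CAGATG, an E-box that Neurod factors bind, along with the related E-box CAGCTG. The palindromic E-box CACGTG was searched too, as was AGGTGTGA, a site of T-box factors. The last motif was AGGTCA, which ROR receptors bind. The only match was CAGATG in the Neurod2 stretch, whose first base is 118 bases before the start, and 14.5% of 32817 windows of 250 bases hold that motif on either strand. The other shares were 13.0% for CAGCTG, 6.02% for CACGTG, 1.12% for AGGTGTGA and 14.03% for AGGTCA. The G and C content was 61.2% for Slc17a7, 53.0% for Neurod2 and 66% for Rorb, against a median of 52.4% over all windows. A second start site of Rorb, at chr19:19001118-19001367 on the minus strand, has a window with 39.2% G and C and no match, and is not printed.

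The CaMKII positive libraries carried low levels of neuronal genes. The median CPM of a list of 12 general neuron genes averaged 10.1 ± 4.43 (SD, n = 10) there, against 6.30 ± 8.06 (n = 17) in astrocytes, 1.86 ± 0.820 (n = 16) in double-positive libraries and 0.905 ± 0.409 (n = 15) in microglia. The same measure for 12 astrocyte genes was 874 ± 147 in CaMKII positive libraries and 1856 ± 242 in astrocytes, and for 12 microglia genes it was 1547 ± 299 in double-positive libraries and 1695 ± 274 in microglia. A list of 12 inhibitory neuron genes had 0.588 ± 0.586 CPM in CaMKII positive and 0.0270 ± 0.0430 CPM in double-positive libraries, and 8 endothelial genes had 467 ± 189 CPM in CaMKII positive libraries and 56.1 ± 24.1 CPM in astrocytes. Other lists were above the neuron list in CaMKII positive libraries and higher there than in astrocytes by their means, at 92.1 ± 52.0 against 3.31 ± 3.08 CPM for microglia genes, 94.7 ± 29.3 against 34.0 ± 11.0 CPM for 7 oligodendrocyte precursor genes, 97.8 ± 23.8 against 57.5 ± 21.7 CPM for 7 mural genes and 58.5 ± 57.4 against 7.29 ± 6.97 CPM for 8 oligodendrocyte genes. The summed neuron list ran from 343.9 to 605.9 CPM in CaMKII positive libraries and from 521.5 to 1390 CPM in astrocytes. Its member Map2 alone averaged 347 ± 53.3 and 560 ± 104 CPM there, most of the sum, and the sum and the list median differ in direction. The part of these other cells in the results below was not tested. The labels excitatory and inhibitory neurons are therefore not used below as names of what the libraries hold. A lower level in a sorted population can come from fewer cells of a type or from less RNA per cell, and these cannot be told apart.

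Camk2a, the gene of the alpha subunit, was called higher in CaMKII positive libraries than in each other population by the fit. The 4 burn libraries had 17.8, 42.2, 128 and 348 CPM, and the 6 sham libraries ran from 43.4 to 273 with a median of 89.0 CPM. The lowest and the highest CaMKII positive libraries thus differed 19.6-fold, and both were burn mice. Double-positive libraries ran from 12.1 to 52.0 CPM (median 21.6), microglia from 10.1 to 27.9 CPM (median 14.8) and astrocytes from 7.30 to 1372 CPM (median 30.3). The mean was 123.1 ± 107 CPM (SD, n = 10) in CaMKII positive libraries and 132 ± 324 CPM (n = 17) in astrocytes, the latter with mouse 13 at 1372 CPM. Without that library, a setting chosen after seeing the data, the astrocyte mean was 54.4 ± 54.1 CPM (n = 16), below that of CaMKII positive libraries.
The ranges of all 4 populations overlapped. In edgeR, with batch and treatment in the model, the log2FC of CaMKII positive libraries was 2.05 ± 0.34 (SE) against double-positive ones (p.adj = 1.05e-05), 1.75 ± 0.54 against astrocytes (p.adj = 0.0134) and 2.85 ± 0.34 against microglia (p.adj = 4.86e-08). Within mice that gave both libraries, Camk2a was higher in the CaMKII positive library in 8 of 9 mice, 9 of 10 mice and 10 of 10 mice, in the same order. Against astrocytes the call was lost without the libraries of mouse 24, where the log2FC was 1.43 (p.adj = 0.0594), and it was lost with mouse 3 included, where it was 1.44 (p.adj = 0.0660). Without astrocyte mouse 13 it was 1.77 (p.adj = 0.00342).

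The highest Camk2a value of the study was in an astrocyte library, that of sham mouse 13, at 1372 CPM. The other 7 sham astrocyte libraries ran from 7.30 to 107 CPM. The same library had a neuron list median of 36.4 CPM, the highest of all 17 astrocyte libraries, and an astrocyte list median of 1659 CPM, within their range of 1430 to 2249 CPM. Astrocyte libraries of batches 1 and 2 averaged 278 ± 486 CPM of Camk2a (SD, n = 7), or 95.1 ± 65.5 CPM (n = 6) without mouse 13, and those of batch 3 averaged 29.9 ± 26.8 CPM (n = 10). The log2FC of astrocytes over microglia was 1.68 ± 0.45 (p.adj = 0.00129), 1.49 without mouse 13 and 0.77 in batch 3 alone (p.adj = 0.0564), where it was not called. Double-positive libraries were lower than astrocytes, with a log2FC of −1.34 ± 0.48 (p.adj = 0.0138), but this call was lost without astrocyte mouse 13 (−0.77), in batch 3 alone (−0.12, p.adj = 0.780) and with mouse as a block (−0.84, p.adj = 0.112). Between double-positive libraries and microglia the log2FC was 0.61 ± 0.15 (p.adj = 0.00379), below the minimum of 1 for a call.

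**Figure D1:**
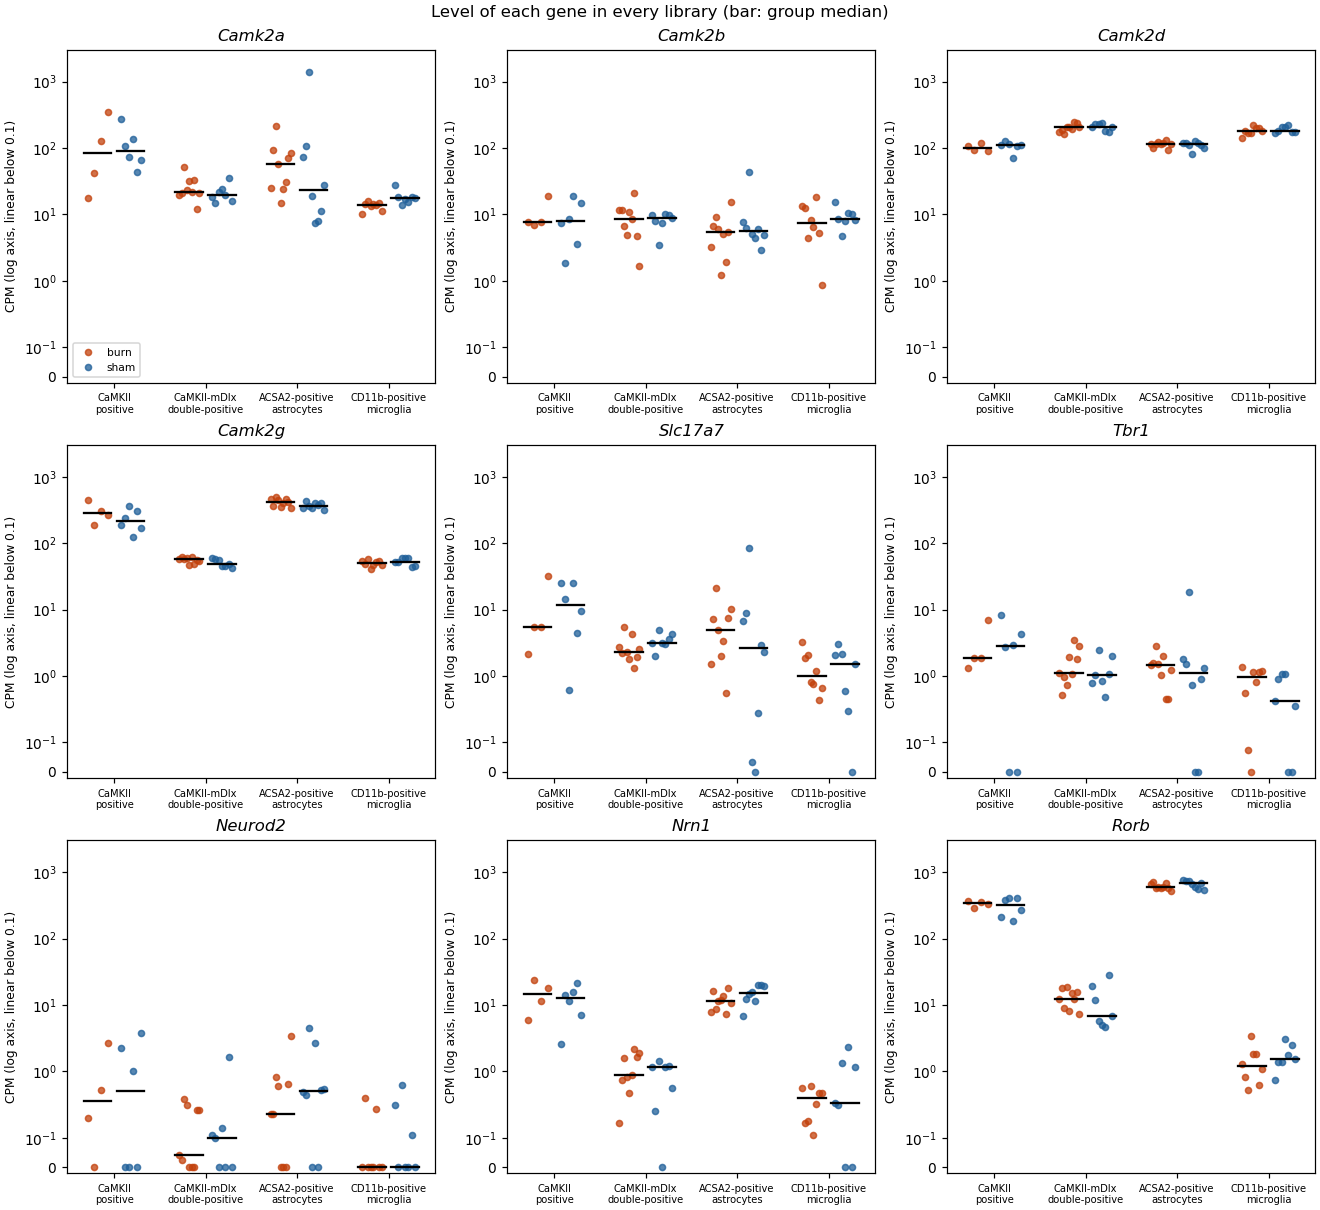
Each panel gives 1 gene, with CPM on a log axis that is linear below 0.1, a point for each of the 58 libraries, burn in orange and sham in blue, and a bar at the group median. Rorb separates all 4 populations, Camk2d and Camk2g split them into 2 levels in opposite order, and the astrocyte library at 1372 CPM stands above every other point for Camk2a.

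Camk2d and Camk2g divided the populations in opposite ways. Camk2d was lower in CaMKII positive libraries, where the 4 burn values were 91.3, 94.2, 107 and 119 CPM and the sham libraries ran from 70.4 to 128 CPM (median 111). Astrocytes ran from 79.8 to 132 CPM, while double-positive libraries ran from 164 to 248 CPM and microglia from 140 to 226 CPM. All CaMKII positive and astrocyte libraries lay below all double-positive and microglia libraries.
Camk2g was high where Camk2d was low. The CaMKII positive burn libraries had 191, 270, 310 and 448 CPM, the sham libraries ran from 125 to 368 CPM (median 214), and astrocytes ran from 319 to 494 CPM. Double-positive libraries held 42.0 to 63.0 CPM and microglia 41.7 to 60.2 CPM, again with no overlap between the pairs of populations.

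For CaMKII positive against double-positive libraries, the log2FC was −1.22 ± 0.09 for Camk2d (p.adj = 3.73e-12) and 2.09 ± 0.14 for Camk2g (p.adj = 7.21e-13). Against microglia it was −0.98 ± 0.09 for Camk2d (p.adj = 6.15e-10), just under the minimum of 1, and 2.23 ± 0.15 for Camk2g (p.adj = 1.69e-12). The Camk2d value passed that minimum with mouse as a block (−1.02), in batch 3 alone (−1.06) and without mouse 2 (−1.03). Scaled by library size only, Camk2d against double-positive libraries was −0.96 and missed the minimum. Against astrocytes, Camk2d was −0.24 ± 0.09 (p.adj = 0.0351) and Camk2g was −0.71 ± 0.14 (p.adj = 0.000204), neither of them large enough for a call. Between double-positive libraries and microglia neither gene was called, at 0.06 ± 0.05 for Camk2d and 0.00 ± 0.06 for Camk2g.

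Camk2b, the gene of the beta subunit, was low in all 4 populations and was called in none of the 6 comparisons between them. It averaged 9.65 ± 5.94 CPM (SD, n = 10) in CaMKII positive libraries, 8.68 ± 4.44 (n = 16) in double-positive libraries, 7.91 ± 9.65 (n = 17) in astrocytes and 8.95 ± 4.54 (n = 15) in microglia. The log2FC of CaMKII positive libraries was −0.12 ± 0.37 against double-positive libraries, 0.64 ± 0.40 against astrocytes and 0.02 ± 0.39 against microglia, the first of which turned positive (0.13) when scaled by library size only. The ranges of all 4 populations overlapped.

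To compare the 4 subunits with each other, counts were divided by the summed exon length of each gene in GENCODE M21, an annotation of GRCm38, while the counts were made on GRCm39. On this scale Camk2g made up 65.0 ± 16.8% (SD, n = 10) of the family in CaMKII positive libraries, Camk2a 25.2 ± 16.8%, Camk2d 7.90 ± 2.21% and Camk2b 1.85 ± 1.44%. Camk2a thus had the larger share of the neuronal pair of subunits, and Camk2g the larger share of all. In astrocytes the shares were 79.9 ± 16.1% for Camk2g and 12.7 ± 17.1% for Camk2a. In double-positive libraries Camk2d (42.1 ± 5.11%) and Camk2g (38.8 ± 4.51%) were near each other and Camk2a took 14.7 ± 5.26%, and microglia had 42.7 ± 3.80%, 41.5 ± 3.25% and 10.8 ± 2.55%. The spread between mice was widest in CaMKII positive libraries, where the Camk2a share ran from 3.06 to 51.1%, and in astrocytes, where it ran from 1.40 to 73.5%.

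**Figure D2:**
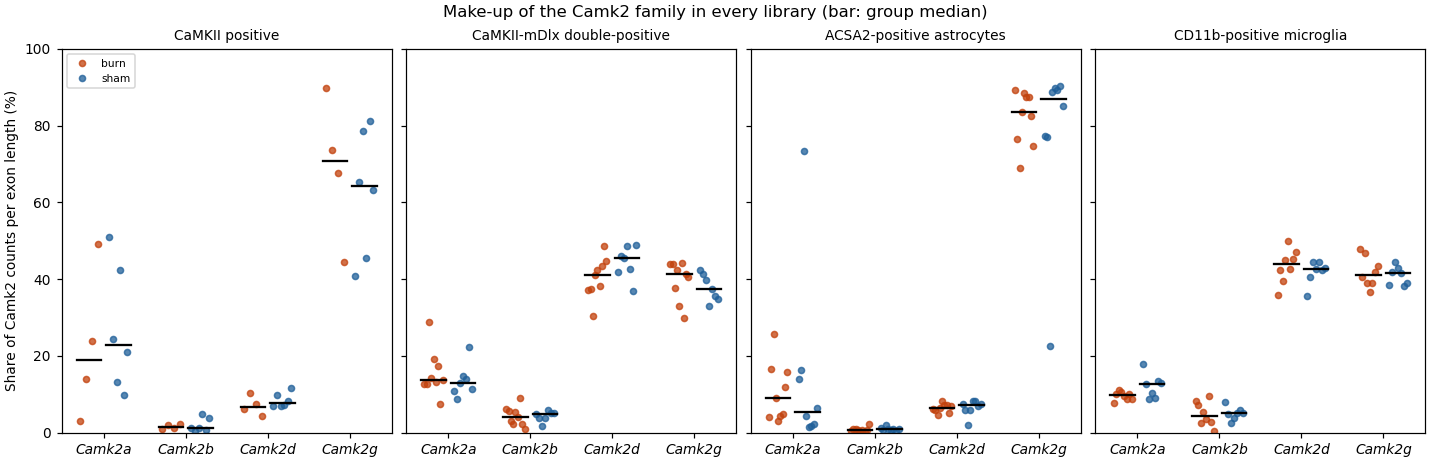
The share of each Camk2 gene in the family, in percent of counts per exon length, with a point for each library, burn in orange and sham in blue, and a bar at the group median. Camk2g leads in CaMKII positive libraries and astrocytes, apart from the libraries where Camk2a takes the larger share, and Camk2d and Camk2g lie close together in double-positive libraries and microglia.

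Slc17a7, the transporter that fills synaptic vesicles with glutamate, was detected in every CaMKII positive library at a low level. The burn libraries had 2.13, 5.39, 5.47 and 32.3 CPM, and the sham libraries ran from 0.608 to 25.1 CPM with a median of 11.9. Double-positive libraries ran from 1.32 to 5.54 CPM (median 2.88), microglia from 0 to 3.27 CPM (median 1.18) and astrocytes from 0 to 85.1 CPM (median 3.41), with mouse 13 highest. The CaMKII positive range overlapped all 3 others.
The log2FC was 1.65 ± 0.44 against double-positive libraries (p.adj = 0.00201) and 3.42 ± 0.58 against microglia (p.adj = 1.39e-05). Against astrocytes it was 1.88 ± 0.76 and was not called (p.adj = 0.0621), although Slc17a7 was higher in the CaMKII positive library in 10 of 10 mice, and with mouse as a block it was called at 2.43 (p.adj = 0.00804). It was called too in batch 3 alone (2.45, p.adj = 0.0272), in DESeq2 (2.03, p.adj = 0.0249) and without mouse 2 (2.18, p.adj = 0.0250). The call against double-positive libraries was lost with that block, where the log2FC was 1.06 (p.adj = 0.128, 9 mice). Double-positive libraries were above microglia, at 1.27 ± 0.34 (p.adj = 0.00778). Astrocytes were above microglia at 1.92 ± 0.58 (p.adj = 0.00429), which was lost with the block (1.59, p.adj = 0.0781) and in batch 3 alone (1.42, p.adj = 0.147).

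The transcription factors Tbr1 and Neurod2 had the lowest mean levels of the 9 genes in CaMKII positive libraries, at 0.553 and 0.332 CPM per kb of exon. Tbr1, a T-box factor of deep-layer projection neurons, had 1.31, 1.87, 1.89 and 7.07 CPM in the CaMKII positive burn libraries and 0 to 8.29 CPM (median 2.83) in the sham libraries, 2 of which had no count. Neurod2, a basic helix-loop-helix factor, had 0, 0.200, 0.524 and 2.69 CPM in the burn libraries and 0 to 3.74 CPM (median 0.508) in the sham libraries, and 4 of the 10 libraries had no count.
In microglia, Neurod2 had no count in 10 of 15 libraries. CaMKII positive libraries were above microglia, with a log2FC of 2.15 ± 0.83 for Tbr1 (p.adj = 0.0295) and 3.03 ± 1.23 for Neurod2 (p.adj = 0.0387), but both calls were lost with mouse as a block, in batch 3 alone and without mouse 8, 19 or 24. With the block the log2FC was 2.30 for Tbr1 (p.adj = 0.157) and 2.92 for Neurod2 (p.adj = 0.270), and in batch 3 alone it was 1.88 (p.adj = 0.116) and 3.23 (p.adj = 0.0728), so the estimates stayed near those of all libraries. Without mouse 24 the values were 1.87 for Tbr1 and 2.14 for Neurod2. Neurod2 was lost also without mouse 17 (2.92, p.adj = 0.0596) and in DESeq2 (3.17, p.adj = 0.0712). Against double-positive libraries the log2FC was 0.73 ± 0.64 for Tbr1 and 2.01 ± 1.114 for Neurod2, and against astrocytes it was 1.48 ± 0.73 and 0.39 ± 1.09, none of them called. Without mouse 18, Neurod2 was called against double-positive libraries, at 3.69 (p.adj = 0.0134). Neurod2 averaged 0.203 ± 0.398 CPM in double-positive libraries, 0.114 ± 0.196 CPM in microglia and 0.887 ± 1.32 CPM in astrocytes. The means of double-positive libraries and microglia are under the limit that a count of 0 allows in the shallowest library. At these levels Neurod2 was called between double-positive libraries and astrocytes (−2.08 ± 0.87, p.adj = 0.0329) and between astrocytes and microglia (2.86 ± 1.07, p.adj = 0.0182). The former was lost without astrocyte mouse 13 (−1.59, p.adj = 0.103), in batch 3 alone (−1.89, p.adj = 0.244) and with no filter on low counts (p.adj = 0.0503), and the latter was lost with mouse as a block (3.72, p.adj = 0.0634) and in batch 3 alone (2.99, p.adj = 0.0765).

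Rorb and Nrn1 were as high in astrocytes as in CaMKII positive libraries, or higher. The CaMKII positive burn libraries had 286, 334, 352 and 371 CPM of Rorb, and the sham libraries ran from 185 to 411 CPM (median 323). Astrocytes ran from 527 to 750 CPM, double-positive libraries from 4.60 to 28.6 CPM and microglia from 0.531 to 3.37 CPM, so that no 2 populations overlapped. Rorb fell by 1.12 ± 0.13 on the log2 scale in CaMKII positive libraries relative to astrocytes (p.adj = 3.96e-08), which was 0.96 and no longer large enough for a call when scaled by library size only. The log2FC was 4.59 ± 0.27 against double-positive libraries (p.adj = 2.55e-14) and 7.56 ± 0.26 against microglia (p.adj = 1.14e-18). Double-positive libraries were above microglia by 2.90 ± 0.27 (p.adj = 1.34e-09), and in 14 of 14 mice.
Nrn1 had 5.89, 11.4, 18.3 and 23.8 CPM in the CaMKII positive burn libraries, 2.54 to 21.3 CPM (median 12.7) in the sham libraries and 6.80 to 19.8 CPM in astrocytes. It stayed between 0 and 2.18 CPM in double-positive libraries and between 0 and 2.36 CPM in microglia, with no overlap with the former pair. The log2FC of CaMKII positive libraries was 3.35 ± 0.44 against double-positive libraries (p.adj = 2.31e-07), 4.24 ± 0.54 against microglia (p.adj = 1.54e-07) and −0.35 ± 0.25 against astrocytes (p.adj = 0.325). Of the exon bases of Nrn1, 22.3% lie opposite exons of Fars2 in GENCODE M21. Use of read strand at the counting step is not given in the sources used here, so reads of the pair cannot be told apart.

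Over the 9 genes, 5 were called higher and 1 lower in CaMKII positive than in double-positive libraries, against 45.8% of all 30693 genes tested in either direction, 26.4% higher and 19.4% lower. Against microglia 7 of 9 were called, all higher, where 43.5% of all genes were called and 28.3% were higher. Against astrocytes 2 of 9 were called, Camk2a higher and Rorb lower, where 16.2% of all genes were called, 12.7% higher and 3.5% lower. The median log2FC of the 9 genes was 2.01, 2.85 and 0.39 in these comparisons and that of all genes tested was 0.05, 0.23 and 0.00. Between double-positive libraries and astrocytes 5 of 9 were called, all lower (55.1% of all genes, 30.7% lower), between astrocytes and microglia 6 of 9, all higher (54.2% and 32.4%), and between double-positive libraries and microglia 2 of 9, both higher (7.58% of all genes, 5.6% higher and 1.98% lower). With mouse as a block 5 of the 9 were called against double-positive libraries (4 higher), where that fit called 35.5% of all genes, 3 against astrocytes (2 higher), where it called 11.1%, and 6 against microglia, 5 higher and Camk2d lower, where it called 33.3%. In the other comparisons the block left 4 lower between double-positive libraries and astrocytes (48.6% of all genes called, 26.1% lower), 4 higher between astrocytes and microglia (46.5% called, 27.2% higher) and 2 higher between double-positive libraries and microglia (3.88% called, 2.65% higher). Scaling by library size only raised the median of all genes by 0.25 for CaMKII positive against double-positive libraries, by 0.16 against astrocytes and by 0.12 against microglia.

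**Figure D3:**
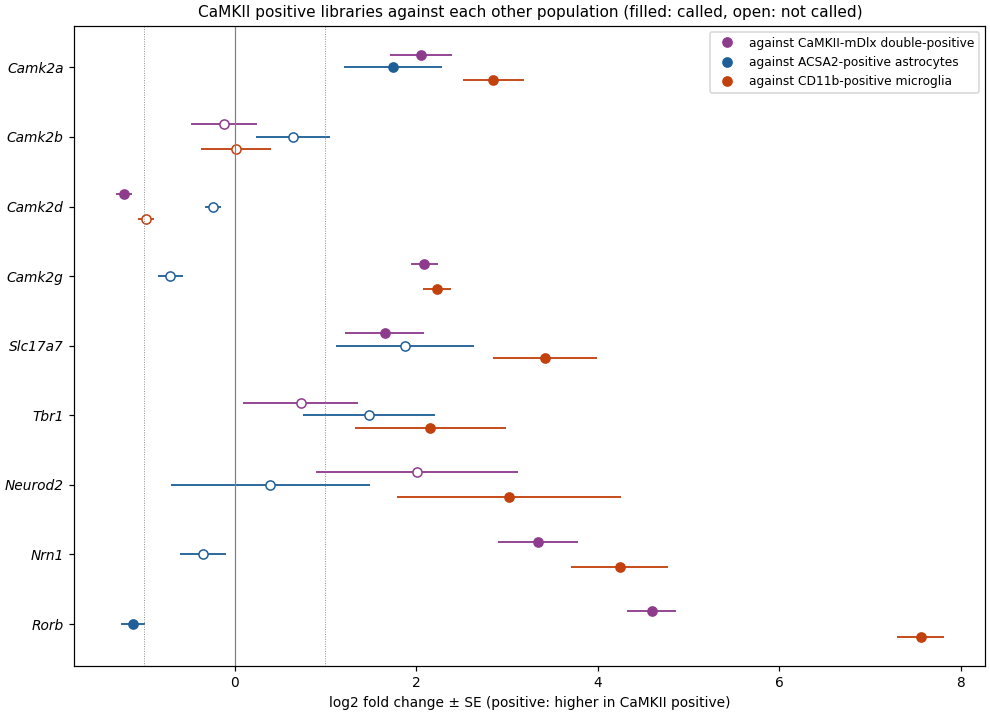
The log2FC of CaMKII positive libraries against each other population with its SE, for each gene, filled where called and open where not, with dotted lines at −1 and 1. Camk2a is filled in all 3 comparisons, Camk2d lies left of 0 in each, and Rorb lies left of 0 against astrocytes and farthest right against microglia.

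Burn and sham libraries did not differ in any of the 9 genes at the threshold used. In edgeR 0 of 9 genes were called in each population, as were 0% of all genes tested, and the lowest and highest values of burn and sham overlapped for each gene in each population. Unadjusted p was under 0.05 for 1096 of 28107 genes in CaMKII positive libraries, 1872 of 26707 in double-positive libraries, 2984 of 27930 in astrocytes and 2036 of 26079 in microglia, and for 0, 0, 0 and 1 of the 9 genes. DESeq2 called 3, 2, 27 and 80 genes in the same order and none of the 9.

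In CaMKII positive libraries Camk2a averaged 134 ± 150 CPM (SD, n = 4) after burn and 116 ± 83.4 (n = 6) after sham, a log2FC of 0.37 ± 0.72 (SE, p.adj = 1.00). The sign of that estimate rested on burn mouse 24, at 348 CPM, and without it the log2FC was −0.74. It was 1.05 in batch 3 alone and −0.17 with mouse 3 included. Slc17a7 averaged 11.3 ± 14.1 CPM after burn and 13.1 ± 10.3 after sham (−0.18 ± 0.91), and it ran from −1.55 without mouse 24 to 0.44 without mouse 2. Camk2d was the most tightly measured, at 103 ± 12.6 CPM after burn and 107 ± 19.2 after sham (−0.06 ± 0.17), and Rorb had 336 ± 36.4 and 309 ± 101 CPM (0.17 ± 0.24). Camk2g had a log2FC of 0.34 ± 0.30, Nrn1 of 0.55 ± 0.37, Camk2b of 0.19 ± 0.59, Tbr1 of 0.29 ± 1.29 and Neurod2 of −0.42 ± 1.97, and the SE of the last pair exceeded a log2FC of 1.

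In double-positive libraries the 4 Camk2 genes lay between 0.02 and 0.15 in log2FC, with SE from 0.08 for Camk2d to 0.39 for Camk2b, and Slc17a7 was −0.55 ± 0.33 (p.adj = 0.808). In astrocytes Camk2a was 68.5 ± 62.1 CPM after burn (n = 9) and 203 ± 474 after sham (n = 8), with a log2FC of 0.89 ± 0.63 (p.adj = 0.693) once batch was in the model and −1.68 without a batch term. Without the sham library of mouse 13 it was 1.05 ± 0.44 (p.adj = 0.451). In batch 3 alone, burn libraries ran from 14.8 to 85.4 CPM and sham libraries from 7.30 to 27.8 CPM, with a log2FC of 1.61 ± 0.40 (edgeR unadjusted p = 0.000549, p.adj = 0.470). In astrocytes Slc17a7 had a log2FC of 1.18 ± 0.86 with batch and −1.14 without it. With batch in the model, the median log2FC between burn and sham astrocytes was 0.42 over the neuron list and 0.57 over the endothelial list, with none of their genes called. The endothelial list was at 67.2 ± 22.1 CPM after burn and 43.6 ± 20.7 CPM after sham, summing to 530.2 to 1567 and 161.4 to 901.3 CPM. The neuron list was at 5.05 ± 2.61 and 7.70 ± 11.7 CPM, summing to 521.5 to 692.2 and 533.8 to 1390 CPM. Its sham values include mouse 13, the astrocyte library with the highest median of this list. The part of either list in these estimates was not tested. In microglia Camk2a had the smallest p of the 9 genes: it was 13.4 ± 1.92 CPM after burn (n = 8) and 18.3 ± 4.56 after sham (n = 7), a log2FC of −0.47 ± 0.15 with an unadjusted p of 0.00428 in edgeR and a p.adj of 0.639. The microglia library of sham mouse 8, at 27.9 CPM, stood above the other 6 sham libraries, which ran from 13.8 to 18.3 CPM, and in batch 3 alone, which does not hold it, the log2FC was −0.26 (p.adj = 0.812). In the same microglia libraries, burn and sham had medians of 2.50 ± 1.55 and 4.32 ± 2.04 CPM for the 12 genes of the astrocyte list, 4.04 ± 2.20 and 8.94 ± 5.90 CPM for the 8 of the endothelial list and 0.787 ± 0.223 and 1.04 ± 0.541 CPM for the 12 of the neuron list (mean ± SD, n = 8 and 7). Summed over the list, burn and sham ran from 209.7 to 365.0 and 232.8 to 337.9 CPM for astrocyte genes, from 63.8 to 112.7 and 75.7 to 193.6 CPM for endothelial genes and from 13.2 to 26.1 and 14.6 to 28.4 CPM for neuron genes. These lists were lower after burn by their medians, as Camk2a was, with none of their genes called in edgeR. A list of 7 border macrophage and monocyte genes went the other way, with a median log2FC of 0.39 and none called. The part of these lists in the Camk2a difference was not tested.

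The share of Camk2a in the counts of the family was compared between burn and sham by a two-sided exact permutation test within batches. It was 5.26 ± 0.616% after burn and 6.82 ± 1.99% after sham in microglia, a difference of −1.56 percentage points (p = 0.0228, p adjusted over the 4 populations = 0.0913). In batch 3 alone the difference was −0.903 points (exact permutation p = 0.175). The other cell markers given above for these microglia libraries apply to the share too, and their part was not tested. The share was 21.5 ± 19.3% after burn and 24.8 ± 15.0% after sham in CaMKII positive libraries (exact permutation p = 0.804). Burn libraries there ran from 3.07 to 47.8%, with mouse 24 highest, and sham libraries from 9.44 to 47.1%. In double-positive libraries it was 8.95 ± 4.003% and 7.45 ± 2.72% (exact permutation p = 0.462). In astrocytes it was 10.55 ± 7.63% and 14.7 ± 24.0% (exact permutation p = 0.846), with sham libraries from 1.35 to 72.6% and mouse 13 the highest. In batch 3 alone the sign of these 3 differences reversed, from −3.24 to 7.37 points in CaMKII positive libraries, from 1.504 to −0.438 in double-positive libraries and from −4.17 to 4.78 in astrocytes.

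The effect of burn was also compared between populations. The log2FC of burn in CaMKII positive libraries less that in double-positive libraries was called for 0 of 9 genes, where 7 of 30693 genes (0.0228%) were called, and the members ranged from −0.28 ± 0.83 for Nrn1 to 0.49 ± 2.31 for Neurod2. For astrocytes less microglia it was called for 0 of 9 genes, where 1 of 30983 genes (0.00323%) was called, and Camk2a had the highest estimate at 0.97 ± 0.86 (p.adj = 0.888). Unadjusted p was under 0.05 for 0 of 9 genes in either comparison. With mouse as a block, edgeR called 0 genes of all tested in both comparisons, with 429 and 1036 at an unadjusted p under 0.05, so that the 7 calls and the 1 call were lost.

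**Figure D4:**
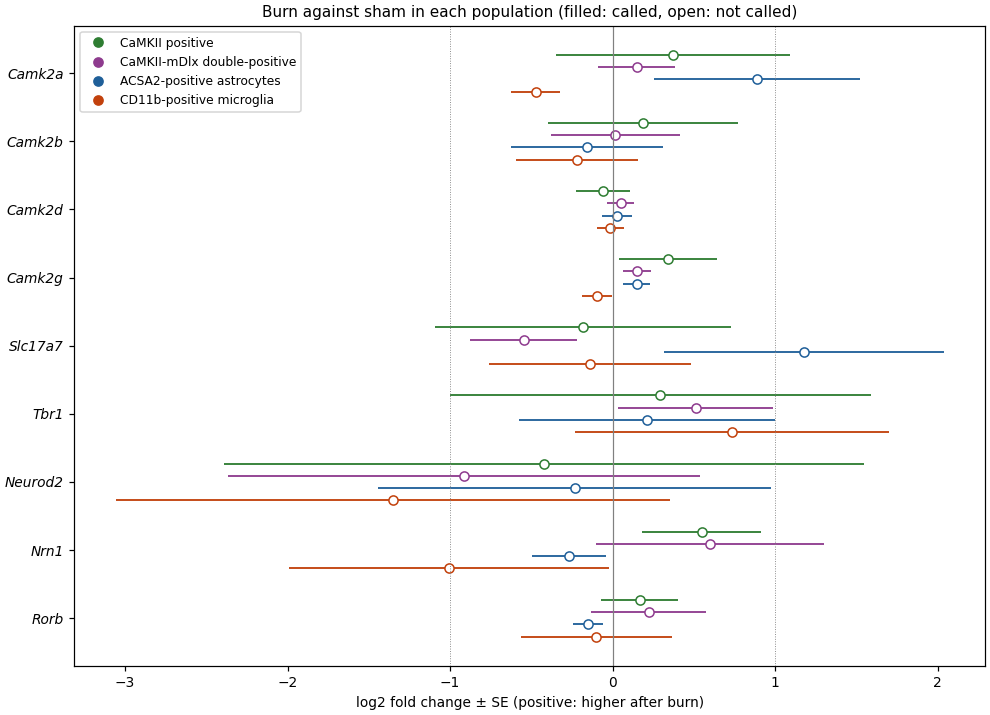
The log2FC of burn against sham with its SE for each gene in each population, all points open because none was called, with dotted lines at −1 and 1. Neurod2 has the longest bar in each population, and Camk2d the shortest in all but astrocytes, where that of Camk2g is shorter.

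The 10 CaMKII positive libraries differed in their level of the neuron list, and the members followed that level in different directions. Across them, the log2 CPM of each gene was compared with the median log2 CPM of the neuron list and of the astrocyte list, 18 relations in all, each value with a prior count of 2. Slc17a7 rose with the neuron list (Pearson r = 0.886, permutation p = 0.00070, adjusted p = 0.0126, and Spearman rho = 0.879, permutation p = 0.00166, adjusted p = 0.0299). Without the 2 libraries farthest from the median of the list r was 0.890, and in the 8 libraries of batch 3 it was 0.885. Camk2a also rose with it (r = 0.825, permutation p = 0.00375, adjusted p = 0.0305, and rho = 0.770, permutation p = 0.0132, adjusted p = 0.0469), with r = 0.751 and 0.671 in those subsets.
Camk2g went the other way (r = −0.794, permutation p = 0.00678, adjusted p = 0.0305, and rho = −0.770, permutation p = 0.0122, adjusted p = 0.0469), with r = −0.590 and −0.679 in the subsets. Rorb did too (r = −0.744, permutation p = 0.0137, adjusted p = 0.0493, and rho = −0.818, permutation p = 0.00587, adjusted p = 0.0352), with r = −0.710 and −0.739, and it rose with the astrocyte list (r = 0.780, permutation p = 0.00518, adjusted p = 0.0305, and rho = 0.758, permutation p = 0.0156, adjusted p = 0.0469), with r = 0.550 and 0.946. By Pearson r, adjusted p passed 0.05 in the subsets for Slc17a7 in both, for Tbr1 (r = 0.890) and Neurod2 (r = 0.863) without the 2 farthest libraries, and for Rorb with the astrocyte list in batch 3. The relations of Camk2a and Camk2g, and of Rorb with the neuron list, did not pass it in either subset. By Spearman rho no relation passed it in either subset, with adjusted permutation p of 0.0948 without the 2 farthest libraries and 0.0701 in batch 3 for Slc17a7, 0.0948 and 0.107 without the 2 farthest for Tbr1 and Neurod2, and 0.0701 in batch 3 for Rorb with the astrocyte list.

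Tbr1 (r = 0.689, permutation p = 0.0268, adjusted p = 0.0616) and Neurod2 (r = 0.721, permutation p = 0.0228, adjusted p = 0.0616) were positive with the neuron list over all 10 libraries and missed the threshold by r. By rank, Tbr1 passed it (rho = 0.830, permutation p = 0.00495, adjusted p = 0.0352). Nrn1 followed neither list, at r = −0.0376 with the neuron list and 0.0268 with the astrocyte list. Camk2d had r = 0.783 with the astrocyte list (permutation p = 0.0274, adjusted p = 0.0616), which was −0.115 without the 2 farthest libraries, so that relation rests on them. Levels of all these genes and lists come from the same libraries and share their depth, and the part played by the mix of cells in each sort was not tested.

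**Figure D5:**
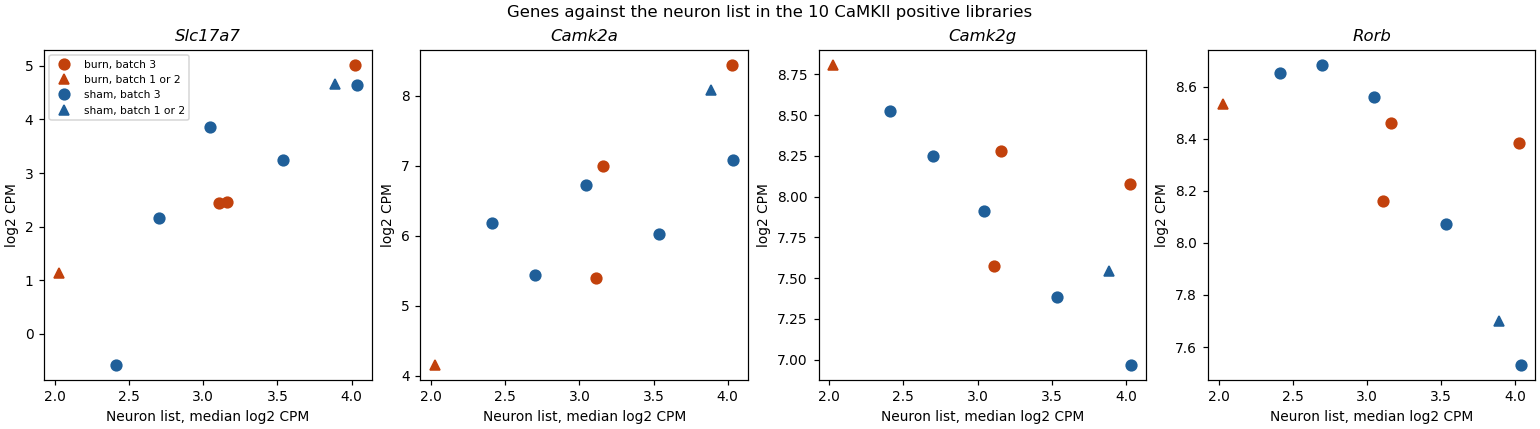
Log2 CPM of Slc17a7, Camk2a, Camk2g and Rorb against the median log2 CPM of the neuron list in the 10 CaMKII positive libraries, burn in orange and sham in blue, circles for batch 3 and triangles for batches 1 and 2. Slc17a7 and Camk2a rise from left to right and Camk2g and Rorb fall, with burn and sham points mixed.

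The genes most like a member were those with the highest Pearson r of log2 CPM, given as a description. Over the 58 libraries and 20611 genes, Camk2a was most like Shank1 (r = 0.923), Ddn (0.912), Rims1 (0.897), Rph3a (0.892) and Rasgef1a (0.887), among which Shank1 encodes a postsynaptic scaffold and Rims1 a protein of the presynaptic active zone. Among the 5 genes most like Slc17a7 were Syt1 (r = 0.762), Camk2a (0.755), Rph3a (0.750) and Rab15 (0.740). Camk2d was most like Chd9 (r = 0.949), Cklf (0.932), Zfp62 (0.929), Snx29 (0.929) and Usp35 (0.929), and its r with Camk2g was −0.835. Within the 10 CaMKII positive libraries the 5 genes most like Camk2a included Agap2 (r = 0.921), Lclat1 (0.917), Nptxr (0.896) and Ppfia3 (0.891), and Slc17a7 was most like Nyap2 (r = 0.961), Gm9517 (0.944), Syt4 (0.944), Cnnm1 (0.937) and Kcnh7 (0.930).

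Other genes of the pathway were taken from 3 lists: 23 regulators of the kinase (calmodulins, kinases upstream or alongside, inhibitors and phosphatases), 22 proteins that it phosphorylates or binds at the synapse and in the nucleus, and 22 further genes of excitatory neurons. Between burn and sham, 0 of the 67 genes were called in any population in edgeR, where unadjusted p was under 0.05 for 0, 1, 3 and 7 of them in CaMKII positive, double-positive, astrocyte and microglia libraries. Of the 67, the genes tested numbered 67, 65, 67 and 64, and the 7 in microglia stand beside 7.81% of all genes at an unadjusted p under 0.05. DESeq2 called 0, 0, 0 and 2 of them, where it called 0.0107%, 0.00749%, 0.0967% and 0.307% of all genes tested. The pair called in microglia, named after their values were seen, were Shank3 (log2FC −1.77 ± 0.35, DESeq2 p.adj = 0.000120) and Map2 (−1.04 ± 0.26, DESeq2 p.adj = 0.0202), which in edgeR had −1.76 ± 0.34 (p.adj = 0.639) and −1.03 ± 0.25 (p.adj = 0.639). Shank3 averaged 3.60 CPM and Map2 6.10 CPM in microglia, against 212 and 347 CPM in CaMKII positive libraries and 55.1 and 560 CPM in astrocytes. By their medians, the astrocyte, endothelial and neuron lists given above for these microglia libraries were lower after burn too, with none of their genes called in edgeR. Map2 is itself on the neuron list. The part of these lists in the result was not tested. Between CaMKII positive libraries and microglia, 18 of 22 targets were higher and 1 lower, with a median log2FC of 3.63, and against double-positive libraries 16 were higher and 1 lower, with a median of 1.63. Against astrocytes 5 were higher and 2 lower, with a median of 0.01. Of the 23 regulators, 8 were higher and 4 lower against double-positive libraries, 8 and 4 against microglia, and 3 and 1 against astrocytes, with medians of 0.63, 0.55 and 0.21. Of the further excitatory genes, 9 were higher and 3 lower against double-positive libraries, 12 and 2 against microglia and 5 and 2 against astrocytes, with medians of 0.92, 2.06 and 0.44. The shares over all genes tested are those given above for the same comparisons.

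From each list, the 3 genes with the highest and the 3 with the lowest ratio of mean CPM between CaMKII positive libraries and astrocytes are named, with the log2FC of the fit. Of the regulators, Ppm1f, a phosphatase of the kinase, was higher in CaMKII positive libraries (1.39 ± 0.13, 99.4 ± 28.1 CPM against 34.0 ± 6.61), and Camk1g, a related calmodulin-dependent kinase, was not called (0.74 ± 1.05, 0.699 ± 0.718 against 0.371 ± 0.426 CPM). Pcp4, a small calmodulin-binding protein, was called at means of 0.178 and 0.0208 CPM, under the limit that a count of 0 allows in the shallowest library, and is given no fold. Ppp1r1b, a dopamine-regulated phosphatase inhibitor, was lower (−1.52 ± 0.15, 33.8 ± 11.8 against 81.5 ± 18.9 CPM), and Camkk1, an upstream kinase (−0.67 ± 0.16), and the phosphatase Ppm1e (−0.69 ± 0.13) were too small for a call.

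Of the targets, Tiam1, an activator of Rac (2.38 ± 0.23), the postsynaptic scaffold Shank3 (2.03 ± 0.25, 212 ± 80.6 against 55.1 ± 38.4 CPM) and Arhgef2, a microtubule-associated exchange factor (1.57 ± 0.12), were higher. Arhgef2 was at 282 ± 23.8 CPM in double-positive libraries and 295 ± 20.9 CPM in microglia, against 188 ± 47.5 CPM in CaMKII positive libraries and 54.8 ± 12.5 CPM in astrocytes, and the part of microglia RNA in its difference was not tested. The glutamate receptor genes Gria1 (−1.82 ± 0.31, 17.5 ± 7.08 against 58.6 ± 42.6 CPM) and Grin2b (−1.03 ± 0.12, 31.2 ± 4.85 against 61.1 ± 14.9 CPM) were lower, and Map2, a protein of dendritic microtubules that is also on the neuron list, was not called (−0.80 ± 0.10).

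Of the further excitatory genes, Ptk2b, a calcium-responsive tyrosine kinase (3.57 ± 0.38), and the transcription factors Foxp2 (2.04 ± 0.53, 10.6 ± 16.0 against 1.70 ± 1.17 CPM) and Pou3f1 (2.37 ± 0.69) were higher. Ptk2b was at 206 ± 8.85 CPM in double-positive libraries and 213 ± 11.9 CPM in microglia, against 26.1 ± 13.5 CPM in CaMKII positive libraries and 3.00 ± 3.68 CPM in astrocytes. Fezf2, a factor of deep-layer projection neurons, was lower (−1.36 ± 0.24, 20.1 ± 10.7 against 45.5 ± 9.64 CPM). Neurod1 was called lower at means of 0.114 ± 0.348 and 1.44 ± 3.66 CPM. The former is under the limit that a count of 0 allows in the shallowest library. Slc17a6, the second vesicular glutamate transporter of the brain, was not called (−0.68 ± 1.15, 0.914 ± 1.22 against 1.39 ± 2.81 CPM).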

How the data were processed

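RNA of sorted cells was sequenced in 63 libraries, of which 58 were kept. The authors trimmed reads with fastp, aligned them with STAR to GRCm39 (the labels also name mm10), and deposited raw counts per gene, made with GenomicAlignments. Their log2-scaled tables of variance-stabilised values were not used here. The number of columns that could not be assigned to a sample was 0.

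Counts were analysed with edgeR 4.0.16 by its quasi-likelihood test, with TMM scaling, genes of at least 10 counts in total, and Benjamini-Hochberg adjustment over all genes tested. Genes with p.adj no higher than 0.05 and a log2FC of 1 or more in size, up or down, were called. Burn was compared with sham with batch (mice 1 to 10, 11 to 14 and 15 to 24) as a term, and populations with batch and treatment. SE was the log2FC divided by the root of the F statistic. Depth differed between libraries, and limits at a count of 0 cover counting error only. Scripts were tested on simulated data with less spread between libraries than the real data. Alternatives were other scalings and filters, DESeq2, no batch term, batch 3 alone, all libraries, left-out mice and mouse as a block. Same mouse numbers mark the same animal, so they pair the populations; the median correlation of their deviations ran from -0.0003 to 0.0694. The members and lists were chosen with earlier results of these data known. Named pathway genes are the 3 with the highest and the 3 with the lowest ratio of mean CPM per list in CaMKII positive libraries against astrocytes. Genes most like a member were the 5 with the highest Pearson r, of which 2 are not reported here. P-values rest on mice as replicates.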

Additional observations from a re-analysis of the deposited data

Results flagged for a closer look

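Within groups of burn or sham libraries of 1 population, 15 values stood apart from the rest of their group by Dixon's test at the 95% level, in 72 groups tested, where chance flags about 1 in 20 groups. The sham astrocyte library of mouse 13 held 4 of them as the highest of 8: Camk2a at 1372 CPM (the other 7 from 7.30 to 107), Camk2b at 43.3 CPM (2.95 to 7.60), Slc17a7 at 85.1 CPM (0 to 8.86) and Tbr1 at 18.6 CPM (0 to 1.78). The burn CaMKII positive library of mouse 24 was the highest of 4 for Camk2b at 19.0 CPM (the other 3 from 7.00 to 7.79), Slc17a7 at 32.3 CPM (2.13 to 5.47) and Tbr1 at 7.07 CPM (1.31 to 1.89), and its burn astrocyte library was the highest of 9 for Neurod2 at 3.44 CPM (0 to 0.828).

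The burn astrocyte library of mouse 10 was the highest of 9 for Camk2a at 215 CPM (the other 8 from 14.8 to 93.8) and for Slc17a7 at 21.4 CPM (0.560 to 10.2), and its neuron list median was 8.99 CPM. Among microglia, Camk2a stood highest at 27.9 CPM in sham mouse 8 (13.8 to 18.3 in the other 6), and Rorb at 3.37 CPM in burn mouse 20 (0.531 to 1.85 in the other 7). In double-positive sham libraries, Camk2b was lowest at 3.42 CPM in mouse 15 (7.49 to 10.1 in the other 6), and Neurod2 was highest at 1.62 CPM in mouse 18 (0 to 0.141). Camk2d was lowest at 70.4 CPM in the CaMKII positive library of sham mouse 17 (109 to 128 in the other 5).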

How the results depend on the processing

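Of 1145 recomputed values for single genes, 28 lost a call and 11 gained one. Another 9, called in neither setting, changed sign and moved by at least their error. The other 1097 kept their call or stayed uncalled. An uncalled estimate that kept its sign counts among these however far it moved. In 63 cases an estimate called in neither setting had the opposite sign. Of the counts and comparisons, 128 counted as unchanged under a looser rule, which let the number of called genes move somewhat. Among them is the fall from 6 to 4 genes for astrocytes against microglia with mouse as a block. Of the rest, 7 fell further and 3 reversed.

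With mouse 3 included, 1 of the 9 genes was called between CaMKII positive libraries and astrocytes in place of 2, where 15.8% of all genes were called. In batch 3 alone, 3 were called between double-positive libraries and astrocytes in place of 5 (48.7% of all genes), and 3 between astrocytes and microglia in place of 6 (48.3%). Without astrocyte mouse 13, a setting chosen after seeing the data, 3 were called between double-positive libraries and astrocytes (55.4% of all genes). Leaving out each mouse with a CaMKII positive library in turn gave 1 to 3 called genes against astrocytes (1 without mouse 24), 6 to 7 against double-positive libraries, 5 to 8 against microglia and 0 between burn and sham, where 14.6 to 16.8%, 43.6 to 45.6%, 41.3 to 42.7% and 0% of all genes were called. Batch 3 alone and the settings with left-out mice hold fewer samples, and the fit with mouse 3 included holds more. What caused these changes was not tested. The burn minus sham difference in the Camk2a share turned in batch 3 alone to 7.37 points in CaMKII positive libraries, −0.438 in double-positive libraries and 4.78 in astrocytes, from −3.24, 1.504 and −4.17. Of the 18 relations with the lists, 5 passed by Pearson r over all libraries, 3 without the 2 farthest libraries and 2 in batch 3.

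With mouse as a block, the pairing left the log2FC of Camk2a between CaMKII positive and double-positive libraries called, the calls that it changed are given with their values in the report, and it changed no other call of the 9 genes. For the difference in the burn effect the block gave 0 of 9 genes, with Camk2a at −0.35 ± 0.71 for CaMKII positive less double-positive libraries and 1.34 ± 0.83 for astrocytes less microglia. No paired analysis was possible for burn against sham because each mouse is in 1 arm. At this depth Neurod2 had 3 counts or fewer in 4 of 10 CaMKII positive, 9 of 16 double-positive, 5 of 17 astrocyte and 11 of 15 microglia libraries.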
